A study of Mus musculus with 6 samples.

Results

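The genes described here are those whose RNA rose only late when mouse embryonic stem (ES) cells were moved from serum to 2i+vitC medium: level between day 0 (D0) and day 6 (D6), then higher at day 13 (D13). There were 112 such genes among 12522 uniquely named genes, or 0.894%. They were chosen by the RNA-seq values of all 6 samples. The mean at D13 had to exceed the mean at D6 by at least 1.2 in log2 CPM, the log2 of a gene's reads scaled to the size of its library, the mean at D6 had to lie within 0.5 of the mean at D0, and both D13 values had to be above 0 and above both D6 values. Every difference between days over these genes is therefore a description with no test. None of the 302 transposon families met the same rule.

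The cells were wild-type J1 ES cells, a mouse line grown here on gelatin without feeder cells. At D0 they were in serum medium with the cytokine LIF, and at D6 and D13 they had spent that many days in serum-free medium with LIF, vitamin C, the Gsk3 inhibitor CT-99021 and the MEK inhibitor PD0325901. Each day had 2 replicates, and all 6 libraries came from this 1 line, with no separate control kept in serum to D13. Time in culture and time in the medium therefore cannot be told apart.

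Polyadenylated RNA was sequenced from the whole culture, with 73230745 to 83688345 reads on genes per sample, so that a log2 CPM of 0 stood for 71.5 to 87.3 reads. No gene of the 112 had fewer than 19 reads in any sample. A log2 CPM is not divided by transcript length, so single genes are compared in level only as CPM per kilobase of exon (RPKM). As a check of the label, all 16 naive pluripotency genes on a fixed list were measured, with a summed level of 2820 to 6100 CPM. In RNA from a bulk culture, a change in the share of cells expressing a gene and a change in RNA per cell cannot be told apart.

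The 2 inhibitors hold ES cells in a state close to that of the early epiblast, by blocking the kinase cascade that drives differentiation and by stabilising β-catenin, which relieves repression of pluripotency genes. The same medium lowers DNA methylation. It weakens the upkeep of methylation through cell divisions, and vitamin C is a cofactor of the Tet enzymes that oxidise methylated cytosine. Some gene promoters, above all those of germline genes, are known to be held silent by methylation, and others depend on which transcription factors are present whatever their methylation.

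To show what sequence lies at the starts of these genes, the 250 bases upstream of a RefSeq start (build GRCm38.p6) are given for 4 of them, with the E-box CACGTG, the site of basic helix-loop-helix factors such as Max, Mitf and Tfeb, in capitals. Rab3il1 (chr19:10017944-10018193, plus strand) had the largest rise, and the stretch belongs to a start inside its annotated body. Its windows beginning further upstream, at 10001419, 10001475 and 10014797, held no E-box. Taf7l (chrX:134476491-134476740, minus strand) was the one gene also on a fixed list of germline genes. Ifi30 (chr8:70766664-70766913, minus strand) was the most abundant lysosomal gene of the set, and Fzd9 (chr5:135251048-135251297, minus strand) had the highest CpG ratio.
Rab3il1: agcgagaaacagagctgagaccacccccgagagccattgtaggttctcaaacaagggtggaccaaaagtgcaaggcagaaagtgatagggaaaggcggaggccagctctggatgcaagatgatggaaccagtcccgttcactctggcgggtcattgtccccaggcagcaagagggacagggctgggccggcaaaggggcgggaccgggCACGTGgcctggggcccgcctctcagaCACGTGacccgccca
Taf7l: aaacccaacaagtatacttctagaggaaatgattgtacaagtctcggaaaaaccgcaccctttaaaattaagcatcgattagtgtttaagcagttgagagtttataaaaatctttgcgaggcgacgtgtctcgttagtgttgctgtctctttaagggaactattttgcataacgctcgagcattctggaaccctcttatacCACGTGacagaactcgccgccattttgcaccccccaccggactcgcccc
Ifi30: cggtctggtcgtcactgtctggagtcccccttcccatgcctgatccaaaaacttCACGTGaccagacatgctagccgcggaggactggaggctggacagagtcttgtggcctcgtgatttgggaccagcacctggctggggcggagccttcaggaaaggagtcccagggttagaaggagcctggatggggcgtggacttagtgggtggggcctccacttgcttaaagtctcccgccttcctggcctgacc
Fzd9: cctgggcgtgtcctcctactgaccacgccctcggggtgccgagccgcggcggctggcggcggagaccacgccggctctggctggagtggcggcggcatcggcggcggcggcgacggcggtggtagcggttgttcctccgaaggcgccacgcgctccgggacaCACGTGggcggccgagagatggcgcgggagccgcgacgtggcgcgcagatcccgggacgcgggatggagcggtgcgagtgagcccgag

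Rab3il1 held 2 E-boxes within this stretch, beginning 42 and 15 bases before the start, and Taf7l held 1 beginning at 49 bases. The E-box of Ifi30 began 196 bases upstream and that of Fzd9 88 bases upstream. The 4 stretches differed in CpG content, with 12, 14, 9 and 42 CpG dinucleotides in the same order. Over the set the E-box was about as frequent as in all genes. In windows from 250 bases before to 50 bases after a start, it stood in 10.1% of the 109 windows of these genes (86 genes with a window) and in 10.2% of the 12478 windows of all uniquely named genes.

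The promoters of the set lay between those of other genes in CpG content. The ratio of observed to expected CpG had a median of 0.649 over the 109 windows, against 0.752 over all 12478 windows and 0.531 over the 656 windows of 691 genes that had already risen by at least 1.2 at D6 and moved by less than 0.5 afterwards. A ratio above 0.6 was found in 52.3% of the windows of the late genes, 43.8% of those of the early genes and 69.2% of all windows. Among the late genes it ran from 0.0437 at a start of Rab3il1 to 1.18 at Fzd9. Windows of 1 gene can overlap, so these shares carry no test.

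Other short motifs, searched on both strands, were at similar shares in the late genes and in all genes. The E2F6 core TCCCGC was in 35.8% and 35.6% of windows, the CCAAT box (CCAAT) in 35.8% and 38.2%, the TATA box (TATAAA) in 8.26% and 6.81%, and the GC box GGGCGG in 67.0% and 63.0%. The cyclic AMP response element TGACGTCA was in 0 of the 109 windows and in 3.05% of all windows. The TCF/LEF core CTTTGAA, the site through which β-catenin acts, was in 1.83% and 3.48%.

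Most genes that rose between D6 and D13 were not of this kind. A rise of at least 1.2 was seen in 446 uniquely named genes. Of these, 165 had already gone up by at least 0.5 from D0 to D6, and 169 had gone down by at least 0.5. In 141 of these 169 the D13 mean was nearer to the serum mean than the D6 mean had been. Picking genes for a fall and then a rise favours this, so nothing is read from that count. The remaining 112 form the set, and the conditions on the single D13 values removed none. The mirror rule, level to D6 and then lower by at least 1.2, was met by 176 genes.

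**Figure D1:**
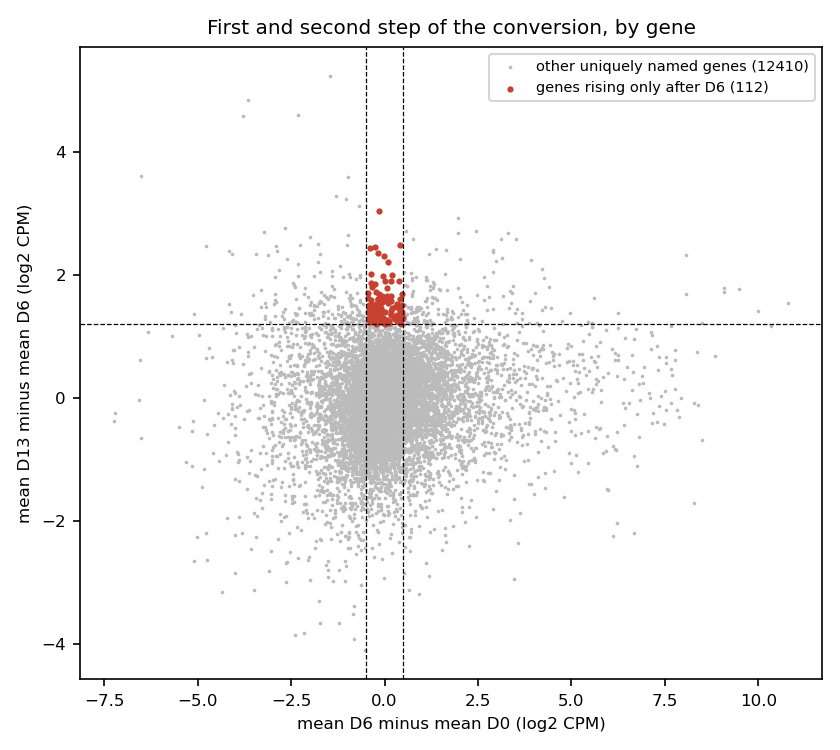
Each point is 1 of the 12522 uniquely named genes, with the difference of means D6 minus D0 on the horizontal axis and D13 minus D6 on the vertical axis, both in log2 CPM; dashed lines mark 1.2 and ±0.5. The 112 red points fill the box the rule cuts out, and the 165 and 169 other genes above 1.2 lie to its right and left.

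Within the set the rise had a median of 1.42 and ran from 1.204 to 3.03 on the log2 scale. It was above 2 in 8 genes, between 1.5 and 2 in 35, and at most 1.5 in 69. The median gene was at 1.80 log2 CPM at D0, 1.82 at D6 and 3.38 at D13, where all uniquely named genes had medians of 4.84, 4.89 and 4.82. Divided by length, their median at D13 was 3.28 RPKM, with a median rank at percentile 35.3 of the genes with a length. Their exons were also short, with a median summed length of 3064 bases in 110 genes, against 4409 bases in all genes and 3782 bases in the early genes.

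**Figure D2:**
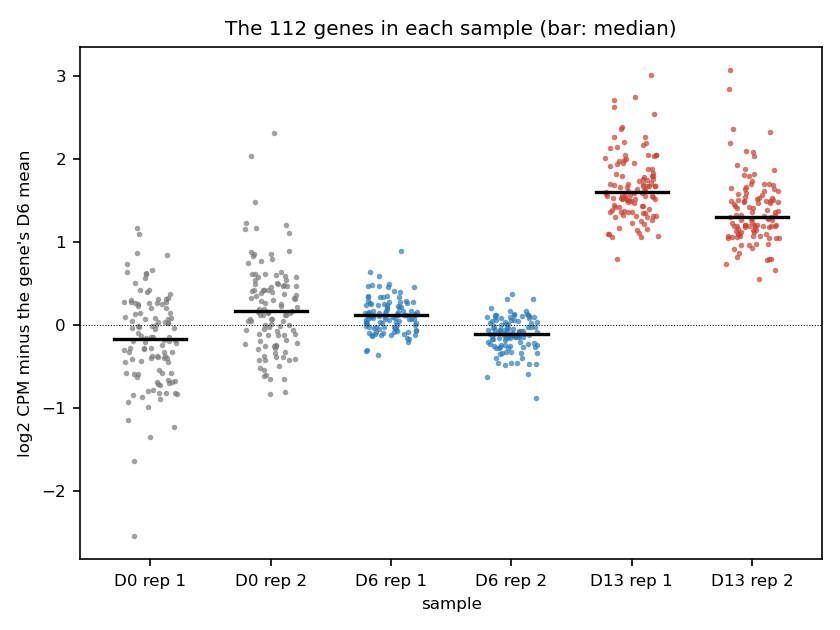
Each point is 1 of the 112 genes in 1 sample, as log2 CPM minus the gene's own mean at D6 (vertical axis), with black bars at the median. The D0 points spread more widely than the D6 points, and the D13 points lie above 0 by the rule. Part of the wider D0 spread follows from subtracting the D6 mean. That step centres the D6 points of each gene on 0, while the D0 points also carry its D6 minus D0 difference.

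In one limma fit over the 3 days, a gene was called at a difference of more than 4-fold with an adjusted p under 0.05. Of the 112 genes, 7 were called up from D6 to D13 (6.25%), where 0.388% of all 12626 tested gene rows were called up and 0.697% down. These 7 were Rab3il1, Akap5, Hrc, Fndc10, Hsf5, Inka1 and Taf7l. From D0 to D13, 11 were called up (9.82%), against 7.45% of all genes. They were the first 6 of those 7 with Tinagl1, Tuft1, 2310039H08Rik, L3hypdh and Smim22. From D0 to D6 none was called in the limma fit, against 9.81% of all genes called in either direction, and 0 of the 112 had an unadjusted p under 0.05, against 36.0% of all genes. Since the rule used these contrasts, nothing is read from the shares. The number called after D6 turned on single libraries: it was 0 without D13 replicate 1, 1 without D6 replicate 2, 4 without D6 replicate 1 and 14 without D13 replicate 2. The number called from D0 to D13 was 34 without D0 replicate 2, 19 without D13 replicate 2 and 5 without D13 replicate 1.

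The largest rise was that of Rab3il1 (chromosome 19, 10001669 to 10038380, plus strand), which encodes an exchange factor that activates Rab GTPases of secretory vesicles. Its log2 CPM was 1.91 and 2.76 at D0, 2.29 and 2.08 at D6, then 5.19 and 5.25 at D13. The D13 samples stood far above the other 4 and close together, a rise of 3.03 ± 0.34 (SE), or 8.18-fold, from 386 and 359 reads to 2606 and 2855. Akap5 (chromosome 12, 76324617 to 76334517, plus strand), an anchor that places protein kinase A near the membrane, was at 2.28 and 1.51, then 2.49 and 2.15, then 4.46 and 5.16. Its D13 replicates were further apart than those of Rab3il1 and did not overlap the earlier days. The rule itself sets D13 above D6, and it also sets the D13 mean above the D0 mean. Both D13 values were above both D0 values in 104 of the 112 genes (92.9%, against 34.0% of all genes), a share the rule favours. A gap from all earlier samples is therefore usual in the set and does not single out a gene.

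A pair of calcium-handling genes came next. Hrc, a calcium-binding protein of the sarcoplasmic reticulum, was at -0.10 and -0.15 at D0, 0.21 and -0.97 at D6, then 2.33 and 1.81 at D13. Atp2b2, a calcium pump of the plasma membrane, was at -2.01 and 1.24, then -0.31 and -1.26, then 1.76 and 1.53. Its serum samples were far apart, and its rise of 2.43 ± 0.92 (SE) was not called. With Itpr2, the calcium release channel of the endoplasmic reticulum, and Grina, a membrane protein of that pathway, the calcium genes of the set rose by 1.32 to 2.45.

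Fndc10 (listed under its older name B930041F14Rik), a membrane protein with a fibronectin domain, was tight within each day: 2.43 and 2.47 at D0, 2.29 and 2.27 at D6, then 4.90 and 4.36 at D13. Inka1 (listed as Fam212a), an inhibitor of the kinase Pak4, was at 0.76 and -0.06, then 0.32 and 0.55, then 2.82 and 2.47. Prnp, the prion protein, was at 3.81 and 3.71, then 3.85 and 3.59, then 5.76 and 5.64. In these 3 genes the D13 values were clear of all 4 early values, as in most genes of the set. Rasl11b, a small Ras-like GTPase, was at 2.26 and 2.37, then 1.79 and 2.12, then 3.95 and 3.69.

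Tinagl1, a secreted matrix protein, differed between its D13 replicates: 2.23 and 2.10 at D0, 2.84 and 1.92 at D6, then 5.12 and 3.62 at D13. Tuft1, first described in developing enamel, was at 2.79 and 3.23, then 3.31 and 3.07, then 5.198 and 4.98. The little-known gene 2310039H08Rik was at 1.28 and 1.28, then 1.77 and 1.53, then 3.91 and 3.18. In both D13 was clear of all earlier samples, as in most genes of the set, and the replicates of Tuft1 were the closer.

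**Figure D3:**
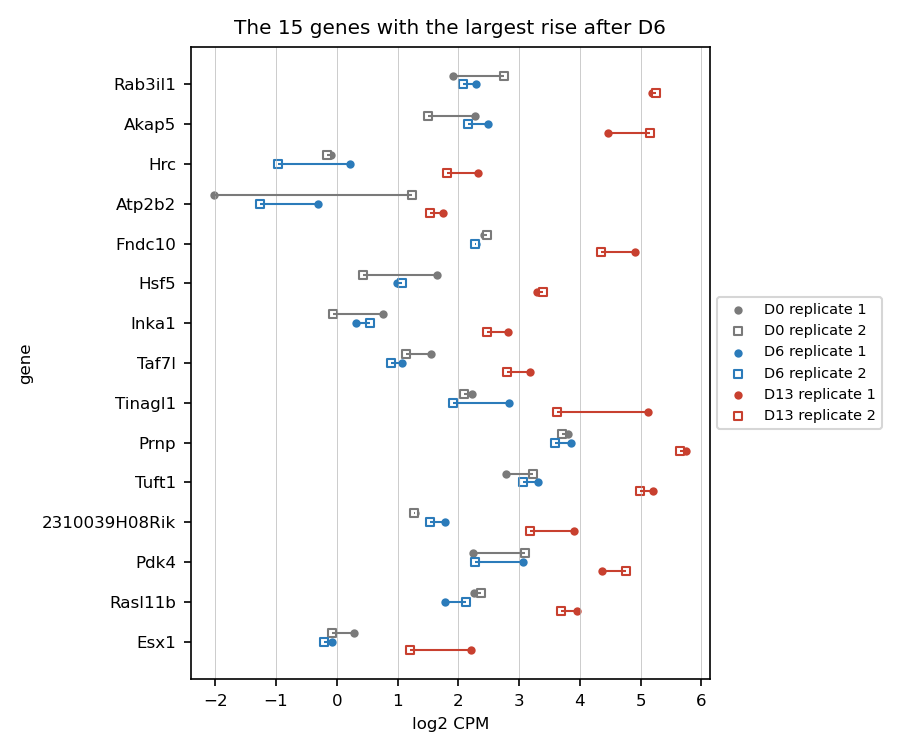
The 15 genes with the largest mean D13 minus mean D6, with log2 CPM on the horizontal axis; filled circles are replicate 1 and open squares replicate 2 of D0 (grey), D6 (blue) and D13 (red), joined by a line. Red lies to the right of blue in each gene by the rule, and the 2 grey symbols of Atp2b2 are the farthest apart.

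Grouped by known role once the values had been seen, 7 genes act in germ cells or reproductive tissue, with rises of 1.204 to 2.31. Hsf5, a heat shock factor family member needed in spermatocytes, was at 1.65 and 0.43 at D0, 0.99 and 1.08 at D6, then 3.30 and 3.39 at D13. Taf7l, a germ cell form of a subunit of the general factor TFIID, was at 1.55 and 1.14, then 1.08 and 0.89, then 3.18 and 2.80. Msh4, which acts on meiotic crossovers, was at -1.81 and 0.47, then -1.32 and -0.70, then 1.04 and 0.56. Hsf5 and Taf7l at D13 were well apart from both earlier days, whereas D13 replicate 2 of Msh4 was barely above its higher serum sample.

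Esx1, an X-linked homeobox gene of placenta and testis, was at 0.28 and -0.08 at D0, -0.08 and -0.21 at D6, then 2.21 and 1.21 at D13. The other 3 were Spesp1 (a sperm equatorial segment protein), Shcbp1l (a spindle protein of male meiosis) and Patl2 (an RNA-binding protein of oocytes). Patl2 was at 2.19 and 4.63, then 4.29 and 3.38, then 5.44 and 5.13, so that its serum samples spanned more than its change after D6.

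Taf7l was the only one of these on a list of 60 germline and meiosis genes, of which 41 were measured. From D0 to D6, 10 of the 41 were called up and 1 down, where 9.81% of all genes were called in either direction. From D6 to D13, Taf7l and the piRNA-pathway gene Fkbp6 were called up and none down, where 0.388% of all genes were called up. The median of the 41 was 0.57 from D6 to D13 against -0.01 over all genes, and 31 had a higher mean at D13, against 49.0% of all genes. Fkbp6 had already risen at D6, unlike Taf7l. It went from 0.65 and 1.58 at D0 to 5.26 and 5.41 at D6, before reaching 7.71 and 7.16 at D13.

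Lysosomal genes were a further group. The lysosome degrades proteins, lipids and glycans taken up or delivered by autophagy, and many of its genes share control by factors that bind E-boxes. Among the genes of this group with a promoter window, only Ifi30 held the E-box CACGTG. The windows of Cln6, Smpd1, Neu1, Idua, Cd68 and Gabarapl1 held none. Ifi30, a lysosomal thiol reductase, was at 5.32 and 5.97 at D0, 5.45 and 4.94 at D6, then 7.24 and 6.57 at D13. Cln6, a membrane protein that sorts lysosomal enzymes on their way from the endoplasmic reticulum, was at 4.37 and 4.46, then 4.49 and 4.19, then 6.03 and 5.77. Smpd1, acid sphingomyelinase, was at 3.32 and 3.17, then 2.89 and 2.73, then 4.24 and 4.13. Each had both D13 values above all 4 earlier values, as most genes of the set did. Of these genes Smpd1 was the tightest at D6 and D13, and Cln6 at D0.

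The other enzymes of the group were Neu1, the lysosomal sialidase, and Idua, which cleaves iduronic acid from glycosaminoglycans. Neu1 was at 3.44 and 3.91 at D0, 4.16 and 3.88 at D6, then 5.38 and 5.15 at D13. Idua was at 1.95 and 3.42, then 3.18 and 3.01, then 4.44 and 4.60. Cd68, a lysosomal membrane glycoprotein best known from macrophages, was at 3.37 and 3.69, then 3.80 and 3.49, then 4.95 and 4.83. Only Idua had a wide gap between its serum samples. Unc93b1, which carries Toll-like receptors to endolysosomes, went from 1.79 and 1.33 at D6 to 3.11 and 2.88 at D13. Gabarapl1, which coats autophagosome membranes and is listed as barapl1, was at 5.08 and 4.43, then 4.84 and 4.78, then 6.12 and 6.04.

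A list of 89 lysosomal genes was written after these values were seen, so its course is not independent of them. Of its 78 measured genes, 6 belonged to the set. All counts of the list given here include these 6, which the rule chose as higher at D13. From D6 to D13 limma called none in either direction at 4-fold, 37 of the 78 had an unadjusted p under 0.05 (against 25.0% of all genes), 64 had a higher mean at D13 (82.1%, against 49.0% of all genes), and the median difference was 0.43. From D0 to D13, 15 of the 78 were called up and 2 down, where 7.45% of all genes were called up and 6.01% down. The summed level of the list was 4270 and 4980 CPM at D0, 7820 and 6580 CPM at D6, then 12700 and 9850 CPM at D13, higher in each day than the day before in every sample.

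For 58 of the 78 the mean was already higher at D6 than at D0. Hexa, a subunit of hexosaminidase, was outside the set on that account, at 4.68 and 5.78 at D0, 7.44 and 6.63 at D6, then 8.72 and 7.92 at D13. Npc1, the cholesterol exporter of the lysosome, went the other way after D6, from 5.95 and 5.74 to 4.33 and 4.67. Replicate 1 was the higher sample at D13 in 58 of the 78 genes and at D6 in 64. Without D13 replicate 1, 60 of the 78 were higher at D13 than at D6, against 50.3% of all genes. The genes of the set, chosen for that direction, are among the 78. A list of 44 autophagy genes, also written late, held only Gabarapl1 from the set and had a median of -0.09 after D6. It had no limma call in either direction. In limma 10 of the 44 had an unadjusted p under 0.05 from D6 to D13, against 25.0% of all genes.

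**Figure D4:**
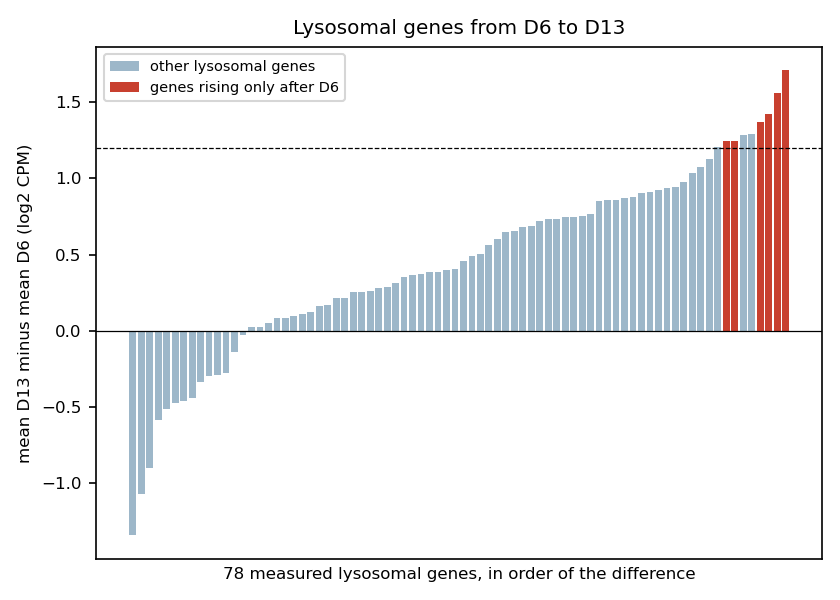
Each bar is 1 of the 78 measured lysosomal genes, in order of mean D13 minus mean D6 in log2 CPM; red bars are the 6 genes of the set and the dashed line is the rise of 1.2 the rule asks for. The bars of 64 genes are above 0, and the lowest, Npc1, is at -1.34.

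Genes of fuel and lipid use formed another part of the set. Pdk4, the kinase that shuts pyruvate out of the mitochondrial cycle, was at 2.24 and 3.09 at D0, 3.07 and 2.28 at D6, then 4.37 and 4.76 at D13. Mlxipl, a transcription factor that responds to glucose, was at 2.81 and 3.77, then 3.57 and 3.69, then 4.83 and 5.12. The cholesterol exporter Abcg1 was at 3.59 and 4.89, then 4.56 and 4.27, then 5.67 and 5.88, and Cyp27a1, which makes the oxysterol 27-hydroxycholesterol, rose from 1.203 and 0.51 at D6 to 2.46 and 2.35. In Pdk4, Mlxipl and Abcg1 the lower D13 value exceeded every earlier value, as in most genes of the set. The 15 metabolic and transport genes rose by 1.25 to 1.89 and included Azin2 of polyamine control, Aloxe3 of lipid oxidation, Gstm7 (listed as tm7) and the phosphate carrier Slc34a3. The rest were Pxylp1, Lyrm9, Tmem86a, Padi3, L3hypdh, Mfsd7a and Art5. None of the 22 measured genes of cholesterol synthesis and uptake was in the set, and their median after D6 was -0.33.

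Among receptors and ligands, Fzd9, a Frizzled receptor for Wnt proteins, was at 1.74 and 1.44 at D0, 1.88 and 1.66 at D6, then 3.54 and 3.31 at D13. Fgfr4, a receptor for fibroblast growth factors, was at 0.15 and 1.46, then 1.02 and 1.26, then 2.72 and 2.62. The ligand gene Pdgfb was at 2.63 and 2.19, then 1.70 and 2.31, then 3.25 and 3.28. Fzd9 and Fgfr4 at D13 were clear of all earlier samples, as most genes of the set were. The D13 values of Pdgfb came closer to its higher serum value. Both Wnt and fibroblast growth factor signals run through the kinases that the 2 inhibitors act on. The other signalling genes included Pik3ip1, an inhibitor of phosphatidylinositol 3-kinase, the natriuretic peptide receptor Npr2, the hormone precursor Pomc, the G-protein regulators Rgs3 and Rgs9bp, and Prkar1b, a regulatory subunit of protein kinase A. Together with Rab3il1, Akap5, Rasl11b and Inka1 there were 21 signalling genes, with a median rise of 1.48; the rest were Angptl6, Sh2d5, Dennd3, Psd2, Plekhg4, Fgfbp3, Ppm1j and Ppp1r12b.

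Stress-response genes gave a mixed picture. Ndrg1, a hypoxia target, was at 3.37 and 3.07 at D0, 3.52 and 3.84 at D6, then 5.03 and 5.10 at D13. Its D13 values were above all earlier samples, as in most genes of the set. Nlrx1, a mitochondrial regulator of innate immunity, rose from 0.01 and -0.42 at D6 to 1.34 and 1.47 at D13. Ndrg1 was the one gene of the set among 20 measured hypoxia targets, whose median after D6 was 0.36 with none called.

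Ddit3, the transcription factor Chop, and Tsc22d3, a glucocorticoid-induced gene, were level to D6 only as a mean. Ddit3 was at 0.96 and 5.81 at D0, 3.46 and 3.54 at D6, then 4.61 and 4.82 at D13, so its highest value of all was in serum replicate 2. Tsc22d3 was at 1.46 and 4.004, then 3.14 and 2.48, then 4.85 and 4.07. Ddit3 belonged to a list of 28 ATF4 targets, the genes induced by amino acid shortage, of which 26 were measured. Serum replicate 2 exceeded serum replicate 1 in 25 of these 26, by a median of 1.65 against 0.06 over all genes. The summed level of the list was 2030 and 3960 CPM at D0, 4500 and 4450 CPM at D6, then 5930 and 4730 CPM at D13. What part this difference between the serum samples has in the course of Ddit3 was not tested.

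Serum values more than 1.2 apart were found in 23 genes of the set, or 20.5%, compared with 6.49% of all genes, and replicate 2 was the higher in 19 of the 23. In 17 of the 23 the gap between the serum samples was at least as large as the later rise. For 50 of the 112, in contrast, both D0 values and both D6 values lay within 0.5 of the D6 mean. Both D13 values were above both D0 values in 104 genes (92.9%, against 34.0% of all genes), which the rule favours. The 8 that overlapped were 2410006H16Rik, Rgs9bp, Zfp787, Art5, Smim11, Fbxw4, Ddit3 and Ccdc158.

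**Figure D5:**
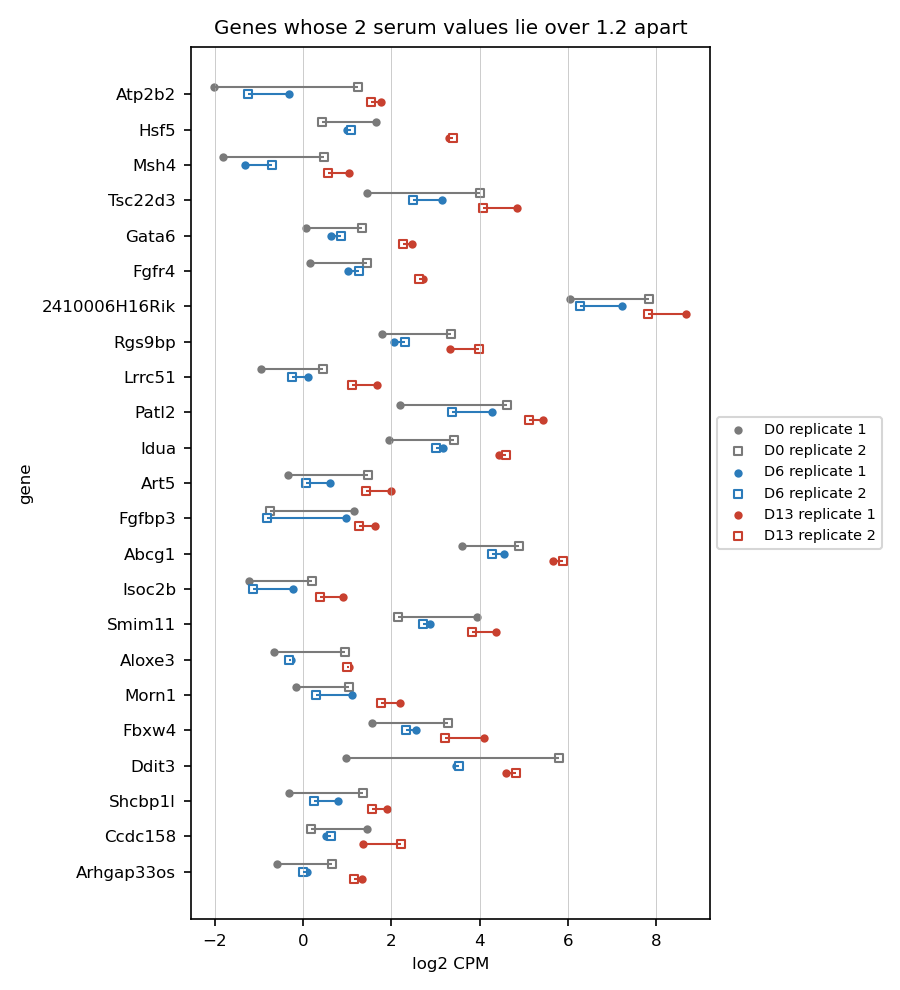
The 23 genes whose D0 replicates lay more than 1.2 apart, ordered by their rise after D6, with log2 CPM on the horizontal axis; filled circles are replicate 1 and open squares replicate 2 of D0 (grey), D6 (blue) and D13 (red). The widest grey line is that of Ddit3, from 0.96 to 5.81, and its right end lies beyond both red symbols.

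The replicates of the later days also differed in a common direction. D13 replicate 1 exceeded replicate 2 in 85 of the 112 genes (75.9%, against 50.6% of all genes), and D6 replicate 1 exceeded replicate 2 in 80 (71.4%, against 46.9%). D0 replicate 2 was above replicate 1 in 70 (62.5%, against 54.6%). In 7 genes D13 replicate 1 was the higher by more than 1, and in none was replicate 2. Taken alone, D13 replicate 1 was at least 1.2 above the D6 mean in 102 genes and replicate 2 in 65. Both D13 values were at least 1.2 above the higher D6 value in 38. With D13 replicate 1 left out the rule found 92 genes, 65 of them in the set, and with replicate 2 left out it found 185, 102 of them in the set. Without D0 replicate 2 it found 90 genes, 71 of them in the set.

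The most abundant gene was 2410006H16Rik (chromosome 11, 62602877 to 62604806, plus strand), a non-coding RNA, at 692 RPKM at D13. Its log2 CPM was 6.05 and 7.85 at D0, 7.22 and 6.28 at D6, then 8.69 and 7.82 at D13. Zfas1, a snoRNA host gene listed as 1500012F01Rik, was at 6.05 and 6.86, then 6.73 and 5.76, then 8.16 and 7.17. In both, replicate 1 was the higher at D6 and D13, and replicate 2 was the higher in serum. All 10 genes of the set annotated as a non-coding RNA or pseudogene had a higher value in D13 replicate 1. The others were the snoRNA Snora65, Epb41l4aos (listed as 2410004N09Rik), 1700007L15Rik, 5430416N02Rik, 1810014B01Rik, Arhgap33os, Gm15446 and Gm5577. The 3 genes of the set with no annotated class are not counted here.

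Tagln2, Zfp346, Palm and Fam219b were among the protein-coding genes with the highest log2 CPM at D13, a level not divided by length. On each day their replicates were closer together than those of 2410006H16Rik and Zfas1. Tagln2, an actin-binding protein, was at 6.89 and 6.50 at D0, 6.69 and 6.57 at D6, then 8.27 and 7.59 at D13. Zfp346, a zinc finger protein that binds double-stranded RNA, was at 5.22 and 5.62, then 5.01 and 5.25, then 6.36 and 6.54. Palm, a membrane-bound protein of cell shape, was at 4.91 and 4.90, then 4.48 and 4.49, then 6.12 and 5.63. The uncharacterised Fam219b was at 4.09 and 4.69, then 4.86 and 4.74, then 6.26 and 6.05. D13 was above every earlier sample in each of the 4, as in most genes of the set.

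Surface, junction and matrix genes made up 12 of the set, with rises of 1.23 to 1.99. Besides Prnp, Tinagl1, Tuft1, Tagln2 and Palm they were the proteoglycan Sdc3, the raft protein Stom, the claudin Cldn3, the metalloproteinase Mmp17, the matrix proteins Fbln2 and Emilin2, and the adhesion molecule Dscaml1. Mmp17 was among the tightest, at 3.74 and 3.78 at D0, 3.95 and 4.10 at D6, then 5.33 and 5.30 at D13. Transcription and nucleic acid genes were 7. They were Gata6, Bhlha15 (a factor of secretory cells), Pold4 (a DNA polymerase delta subunit), Zfp346, Zfp787, Scand1 and the ribosomal protein gene Rps27.

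A further 22 genes were of little-known or other function, with a median rise of 1.33 and levels at D13 from 0.64 to 6.16 log2 CPM. Besides Fndc10, 2310039H08Rik, Smim22, Fam219b, Lrrc51, Smim11, Fbxw4, Ccdc158 and Gm128, they were Inafm1, Mipol1, Nap1l5, Shisa4, Isoc2b, Morn1, Fam221a, Trappc6a, AU022751, AI413582, 1810010H24Rik, 1810026B05Rik and 1 unmatched name. Nap1l5, an imprinted gene that was not on the imprinted list, was at 0.01 and -0.12 at D0, 0.20 and 0.61 at D6, then 1.91 and 1.91 at D13. D13 replicate 1 was the higher in 19 of the 22. Mipol1 was at 2.72 and 2.84 at D0, 2.69 and 2.75 at D6, then 4.14 and 4.41 at D13, one of the flattest courses before the rise.

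Gata6, the factor that founds the primitive endoderm and is listed as ta6, was at 0.07 and 1.34 at D0, 0.64 and 0.85 at D6, then 2.47 and 2.27 at D13. Of 22 primitive endoderm markers 14 were measured, and none but Gata6 was in the set. After D6 none was called up and 1, the basement membrane collagen Col4a1, was called down. Their summed level was 799 and 1050 CPM at D0, 869 and 762 CPM at D6, then 1550 and 916 CPM at D13. Gata4 and Sox7, which act beside Gata6, were not among the genes tested.

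For trophoblast, 13 of 25 markers were measured, with Esx1 alone in the set and the keratin Krt7 alone called up after D6. Krt7 was at 2.72 and 2.08 at D0, 0.81 and 0.42 at D6, then 2.94 and 2.69 at D13, a return to the serum level. The summed level of the trophoblast list was 1160 and 548 CPM at D0, 383 and 333 CPM at D6, then 411 and 273 CPM at D13. The defining factors Cdx2 and Elf5 were not among the genes tested.

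The other fixed lists had no gene in the set. These were lists with 41 measured imprinted genes, 20 p53 targets, 19 interferon and antigen presentation genes, 11 NRF2 targets, 16 naive, 8 formative and primed, 11 neural and 10 fibroblast genes. The summed level at D6 and D13 was 256 to 337 CPM for the neural and 1500 to 1860 CPM for the fibroblast list.

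Of the 109 genes with a RefSeq position, 13 were on chromosome 5 (11.9%, against 6.30% of all genes), 11 on chromosome 7 (10.1%, against 8.01%), 3 on X (2.75%, against 3.86%) and 0 on chromosome 14 (3.46% of all genes). Another gene of the set started within 500 kb of 11 genes. The closest pair was Zfp346 and Fgfr4 on chromosome 13, whose starts were 47.5 kb apart with no other measured gene between them.

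On chromosome 5, Cldn3, Mlxipl and Fzd9 lay between 134986214 and 135251047, with the first and last starts 262.7 kb apart, in the region matching that lost in human Williams syndrome. Cldn3 was at 1.49 and 2.10 at D0, 2.29 and 2.06 at D6, then 3.73 and 3.08 at D13. The genes around them did not share one course. Of the 12 measured genes starting in the interval, 9 had a higher mean at D13 than at D6, against 49.0% of all genes. The 9 include the 3 genes of the set, which are higher by the rule. Abhd11os was higher by 1.63 after a difference of 1.15 to D6, and Vps37d was higher by 1.09. The difference of Dnajc30 was -1.45, and that of Baz1b, which remodels chromatin, was -0.23.

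The remaining neighbours were further apart or in mixed company. Mfsd7a and Idua lay 219.3 kb apart on chromosome 5, where Mfsd7a, a membrane transporter gene, was at -0.41 and 0.19, then 0.45 and -0.81, then 1.48 and 1.45. Unc93b1 and Pold4 were 296.7 kb apart on chromosome 19. In their interval 14 of the 17 measured genes had a higher mean at D13, against 49.0% of all genes. The 14 include these 2 genes, which are higher by the rule. Pold4 was at 1.23 and 1.58, then 2.14 and 1.47, then 3.36 and 2.93. Lrrc51 and Art5 were 183.9 kb apart on chromosome 7, and both had serum values far apart, -0.96 and 0.44 for Lrrc51 and -0.33 and 1.48 for Art5.

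The threshold of 1.2 cut through a continuum. Just inside were Spesp1 (1.204), Arhgap33os (1.206) and Ccdc158 (1.207). Just outside were Chchd5, a mitochondrial protein (1.199), Acrbp, a sperm acrosome protein (1.195), and Atp5g2, a subunit of ATP synthase (1.19). Chchd5 was at 4.53 and 4.78 at D0, 5.19 and 4.99 at D6, then 6.496 and 6.08 at D13, a course as clear as that of many genes inside. Ccdc158 was at 1.45 and 0.17, then 0.53 and 0.64, then 1.37 and 2.21, and its D13 replicate 1 lay below its serum replicate 1.

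By annotation 99 of the 112 were protein-coding, 8 were long non-coding RNAs, 1 a snoRNA and 1 a transcribed pseudogene, and 3 had no class. The deposited names lack each capital G with the character after it. For 7 genes the full symbol was recovered as the single match (Gata6, Grina, Gstm7, Gabarapl1, Gm15446, Gm5577 and Gm128), and 1 name was left unmatched. An annotated gene overlaps 40 of the genes on the opposite strand and 13 on the same strand. Reads of the opposite-strand overlaps could be shared where the counting ignored strand. Same-strand overlaps, such as that of Snora65 with Rpl12, could affect counts whatever the strand setting. What part they have was not tested. Rps27, listed at 0.08 and -0.19 at D0 and 1.38 and 0.48 at D13, has near-identical copies, and its count is uncertain.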

How the data were processed

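RNA-seq values of 6 samples (J1 ES cells, 2 replicates each at D0, D6 and D13) were used as deposited. Per the labels and the methods, the authors mapped paired reads to mm10 with TopHat2 2.0.6 and the RefSeq annotation and counted them per gene with HTSeq 0.6.1. The strand setting of the counting is not given in the sources used here. Reads of transposon families were mapped with Bowtie 1.0.0. Genes and families were scaled together by TMM and converted by voom, so that the deposited values are log2 CPM with an offset of 0.5 reads. Rows were already filtered to 12626 gene rows and 302 families. The 104 gene rows with a shared name were left out of the rule.

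Undoing the log2 scale gave whole reads (within 0.01) for every gene value, and these reads were used for depth and for voom weights. Day means were fitted for all genes and families in one model with limma 3.58.1 (R 4.3.3), a mean-variance trend and Benjamini-Hochberg adjustment over 12928 rows, after a check on simulated data. Calls needed more than 4-fold and an adjusted p under 0.05, the thresholds for genes in the study's methods. The study's volcano plots of genes used a p under 0.01. Its fit used voom weights, whereas the main fit here did not. With voom weights, 50 genes and 7 of the set were called up from D6 to D13. Gene symbols, positions and promoters came from RefSeq and lengths, classes and overlaps from GENCODE, both on GRCm38, the build of the files. The set and all gene lists were chosen with earlier results of these data known, and the lysosomal, autophagy and role groups after their values were seen. Named with values in each sample were the 15 genes with the largest rise, the 10 with the highest level at D13, those on a fixed list, neighbours within 500 kb and genes beside the threshold. The others named with values were chosen after their values were seen. The values of 2 genes of the set are not reported here. P-values measure the spread between the 2 replicates of each day, which the study calls biological.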

Additional observations from a re-analysis of the deposited data

How the results depend on the processing

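The set changed with its own thresholds: a minimum rise of 1.0 gave 184 genes, 1.5 gave 43, a D0 to D6 window of 0.25 gave 60, and log2 of CPM plus 1 gave 67, of which 56 were in the set. Leaving out 1 sample gave 90 to 185 genes. From D6 to D13, leaving out 1 sample gave 0 to 64 genes called up in all and 0 to 14 of the set, each fit with a lone sample assuming that it varies like the other days. An adjusted p under 0.01 gave 1 and 0, and a 2-fold minimum 174 and 40. From D0 to D13, leaving out 1 sample gave 5 to 34 of the set and 833 to 1090 genes in all, and a 2-fold minimum gave 80 and 2098. From D0 to D6 a 2-fold minimum gave 2612 changed genes. Of 48 alternatives that kept all samples, 37 gave a count within 1.5 times the reported one. With the replicate number as a block, 62 genes and 7 of the set were called up after D6. The replicate differences correlated over genes at -0.13 (D0 with D6), 0.33 (D6 with D13) and 0.14 (D0 with D13), and over families at 0.54, 0.10 and 0.22, so a pairing by number was not shown for genes and was not tested further. Each gene of the set had at least 19 reads in every sample. Asking for both D13 values above 2 left 77 genes, and what part depth has in the set was not tested. With 2 replicates a day, the serum values of 23 genes lay over 1.2 apart.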
